A study of Mus musculus with 10 samples.

Results

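The genes described here were 10 keratins and epithelial markers of the mouse, out of 17603 genes with a value. They were Krt8, Krt18, Krt19 and Krt7 (keratins of simple epithelia), Krt5 and Krt14 (keratins of stratified epithelia), and Epcam, Cdh1, Cldn4 and Sfn. They were selected on the high FPKM of Krt8 and Krt18 in tumor libraries, so their values in tumor against spleen are given as a description, with no test. RNA sequencing covered sorted cells that the labels name EPC, an abbreviation they do not spell out, from wild-type female C3H/HeN mice bearing tumors of SCC7, a single mouse squamous cell carcinoma line that stands for head and neck squamous cell carcinoma (HNSCC). Flow cytometry gave tumor CD45+ cells (n = 4), splenic CD45+ cells (n = 3) and splenic CD45- cells (n = 3), CD45 being the surface phosphatase of white blood cells. All 3 groups came from tumor-bearing mice. The ages of the mice and the other surface markers of the sort are not given in the labels, and neither SCC7 cells alone nor tumor CD45- cells were analysed here.

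Keratins are the intermediate filament proteins of epithelial cells, and each filament is built from a type I and a type II keratin in equal amounts. Krt8 (type II) and Krt18 (type I) are the pair of simple epithelia and of the early embryo, are joined by Krt7 and Krt19 in ductal epithelia, and are also made by many carcinomas. Krt5 and Krt14 form the pair of the basal layer of squamous epithelium, the tissue from which squamous carcinomas arise, and filaments are tied to desmosomes and hemidesmosomes at the cell surface. White blood cells use vimentin and lamins as their main intermediate filaments.

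Values were FPKM (fragments scaled to transcript length and to the depth of the library). The steps between low values correspond to roughly 17800000 to 20900000 fragments in each library. Ptprc, which encodes CD45, had 59.42, 90.1, 91.22 and 92.52 FPKM in tumor CD45+ libraries 1 to 4. It had 265.5, 39.2 and 152.9 FPKM in splenic CD45+ libraries 1 to 3, and 1.63, 2.57 and 2.31 FPKM in splenic CD45- libraries 1 to 3. Tumor and splenic CD45+ libraries therefore overlapped in Ptprc, and each of them lay above each splenic CD45- library. Some libraries stood apart from others of their group. Over genes of about 100 to 500 fragments, the median squared difference between 2 libraries was 1.19 to 1.81 times that of sampling noise among tumor replicates 2, 3 and 4, against 7.52 to 8.6 times between each of these and tumor replicate 1. It was 78.5 to 95.2 times between splenic CD45+ replicate 2 and the other splenic CD45+ libraries, which differed from each other by 7.32 times. Splenic CD45- replicate 1 differed from replicates 2 and 3 of its group by 5.05 and 4.9 times, against 1.89 times between replicates 2 and 3. Haemoglobin genes took 10.4% of the summed FPKM of tumor replicate 1, against 1.8% to 1.87% in tumor replicates 2 to 4. With tumor replicates 2 to 4 averaged and counted as 1 library, an alternative chosen after seeing the data, the number of genes called between tumor and splenic CD45+ libraries was 4769 in place of 7313.

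Krt8 and Krt18 were the only 2 of the 10 genes above 3 FPKM in any library, and they reached that level in tumor CD45+ libraries alone. Krt8 had 239.2, 208.5, 213.7 and 214.9 FPKM in tumor CD45+ libraries 1 to 4. It had 0.05, 0 and 0.02 FPKM in splenic CD45+ libraries 1 to 3, and 0.33, 0 and 0.02 FPKM in splenic CD45- libraries 1 to 3. The tumor libraries lay close together and far above each splenic library, and the splenic groups overlapped. Krt18 had 163.9, 104.8, 102.2 and 95.43 FPKM in tumor CD45+ libraries. It had 0.1, 0.03 and 0.27 FPKM in splenic CD45+ libraries, and 0.41, 0 and 0.06 FPKM in splenic CD45- libraries. Tumor replicate 1 was the highest of its group for both genes, by more for Krt18 than for Krt8. On the log2(FPKM + 1) scale, the tumor CD45+ mean was 7.75 ± 0.05 (SE) above the splenic CD45+ mean for Krt8 and 6.67 ± 0.20 (SE) above it for Krt18 (n = 4 and 3). Both ranked high in the tumor libraries: Krt8 was between the 468th and 532nd highest of the 17603 genes, and Krt18 between the 663rd and 1086th. In such sorted bulk samples, fewer cells of a type and less RNA per cell cannot be told apart.

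Type II Krt8 was above type I Krt18 in every tumor library, although their proteins pair in equal amounts. The FPKM of Krt8 divided by that of Krt18, both per transcript length, was 1.46, 1.99, 2.09 and 2.25 in tumor replicates 1 to 4, a mean of 1.95 ± 0.343 (SD, n = 4). Without replicate 1 it was 2.11 ± 0.133 (SD, n = 3). The pair made up 97.8% ± 0.230 (SD, n = 4) of the summed FPKM of the 29 keratins with a value in tumor libraries, so hardly any other keratin RNA accompanied it.

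**Figure D1:**
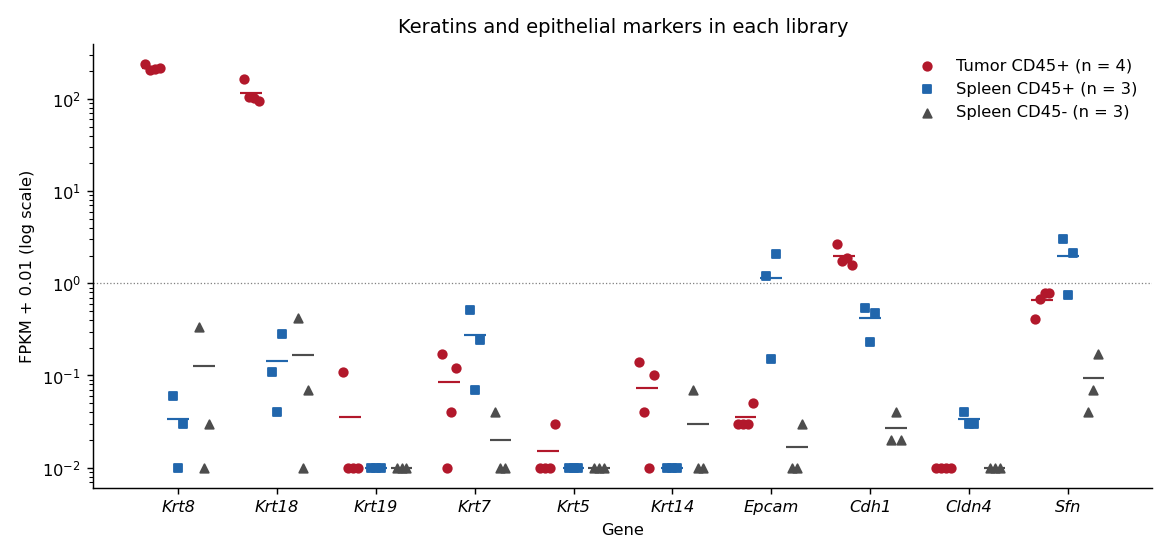
FPKM plus 0.01 on a log axis for the 10 genes, with 1 point per library and a short line at each group mean; the dotted line marks 1 FPKM. Krt8 and Krt18 sit between 95.43 and 239.2 FPKM in the 4 tumor CD45+ libraries and at 0.41 FPKM or less in each splenic library, while Epcam and Sfn have their highest points in splenic CD45+ libraries.

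Krt8 and Krt18 lie side by side on mouse chromosome 15, Krt8 at chr15:101996711-102004342 on the minus strand and Krt18 at chr15:102028216-102032026 on the plus strand (GRCm38.p6), with 23873 bases between them. The divergent promoters of the pair are shown because both genes were high in the same libraries. Each line runs 5′ to 3′ on the strand of its gene, from 250 bases before to 10 bases after the annotated start, as given by RefSeq for GRCm38.p6; capitals mark matches to the motifs searched.
Krt8, chr15:102004333-102004592, minus strand: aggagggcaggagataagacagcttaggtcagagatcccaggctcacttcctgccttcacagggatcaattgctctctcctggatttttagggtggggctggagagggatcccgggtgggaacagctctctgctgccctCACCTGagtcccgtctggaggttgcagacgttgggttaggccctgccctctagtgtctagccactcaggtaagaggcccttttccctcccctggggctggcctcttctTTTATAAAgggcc
Krt18, chr15:102027966-102028225, plus strand: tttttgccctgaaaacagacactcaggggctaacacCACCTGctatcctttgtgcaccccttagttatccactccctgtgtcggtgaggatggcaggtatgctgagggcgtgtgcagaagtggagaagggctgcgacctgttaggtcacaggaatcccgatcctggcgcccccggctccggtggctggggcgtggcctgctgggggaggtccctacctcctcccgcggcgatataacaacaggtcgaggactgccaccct
Motifs were searched on both strands in windows of 300 bases, 250 before and 50 after the start. The E-box CACCTG, the sequence bound by repressors such as Snai1 and Zeb1, occurred 1 time in each promoter, at bases -111 to -106 in Krt8 and -214 to -209 in Krt18, and in 20.2% of 32851 such windows. TATAAA had 2 overlapping matches, 1 on each strand, at bases -3 to 5 around the annotated Krt8 start and none in Krt18, and was in 13.6% of windows. Neither window held GGGCGG (35.7% of windows) or the AP-1 motif TGANTCA (7.81% of windows). These matches are descriptions of the letters alone. Promoters were listed for 8 of the 10 genes, all but Krt19 and Cdh1.

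The other simple keratins did not accompany the pair. Krt19, a type I keratin of ductal epithelia, had 0.1, 0, 0 and 0 FPKM in tumor CD45+ libraries and was at 0 in each splenic library. Krt7, its type II counterpart, had 0.16, 0, 0.03 and 0.11 FPKM in tumor CD45+ libraries, 0.51, 0.06 and 0.23 FPKM in splenic CD45+ libraries, and 0.03, 0 and 0 FPKM in splenic CD45- libraries. Krt7 thus overlapped between tumor and splenic CD45+ libraries, with its highest value in spleen. The basal squamous pair was near 0 throughout. Krt5 had 0.02 FPKM in tumor replicate 4 and 0 in the other 9 libraries. Krt14 had 0.13, 0.03, 0 and 0.09 FPKM in tumor CD45+ libraries, 0 in each splenic CD45+ library, and 0.06, 0 and 0 FPKM in splenic CD45- libraries. For these 4 keratins 1 fragment was worth 0.0126 to 0.0327 FPKM, so each tumor value of Krt5 or Krt14 rested on a handful of fragments at most.

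The adhesion genes and Sfn split between tumor and spleen. Cdh1, which encodes E-cadherin of adherens junctions and is also known from some dendritic cells, had 2.66, 1.74, 1.88 and 1.56 FPKM in tumor CD45+ libraries, 0.53, 0.22 and 0.47 FPKM in splenic CD45+ libraries, and 0.01, 0.03 and 0.01 FPKM in splenic CD45- libraries. The 3 groups did not overlap, and the tumor CD45+ mean was 1.07 ± 0.15 (SE) above the splenic CD45+ mean on the log2(FPKM + 1) scale. Epcam, an adhesion molecule of simple epithelia that some dendritic cells also carry, went the other way. It had 0.02, 0.02, 0.02 and 0.04 FPKM in tumor CD45+ libraries, against 1.18, 0.14 and 2.08 FPKM in splenic CD45+ libraries and 0, 0 and 0.02 FPKM in splenic CD45- libraries. Each splenic CD45+ library was above each tumor library, with a log2 difference of -0.94 ± 0.42 (SE). Sfn, the 14-3-3 sigma protein of epithelial cells, had 0.4, 0.67, 0.77 and 0.78 FPKM in tumor CD45+ libraries, 2.99, 0.74 and 2.12 FPKM in splenic CD45+ libraries, and 0.03, 0.06 and 0.16 FPKM in splenic CD45- libraries. Tumor and splenic CD45+ libraries overlapped for Sfn through splenic replicate 2. Cldn4, a claudin of tight junctions, was at 0 in each tumor library, at 0.03, 0.02 and 0.02 FPKM in splenic CD45+ libraries and at 0 in splenic CD45- libraries. The splenic CD45+ values of Cldn4 stood for about 1, 0.7 and 0.7 fragments.

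Counted over the 10 genes, 3 (Krt8, Krt18 and Cdh1) were higher in tumor CD45+ than in splenic CD45+ libraries without overlap and 2 (Epcam and Cldn4) were lower without overlap. Among all 17603 genes with a value, 30.2% were higher and 23.7% lower in this way. The filter of at least 1 FPKM in at least 3 libraries was passed by 3 of the 10 genes, Krt8, Krt18 and Cdh1, and each passed through the tumor libraries alone, so each could only be called higher. In the limma fit across 11463 genes, 63.8% were called at an adjusted p below 0.05, 37.7% higher and 26% lower in tumor CD45+ libraries. Of all calls 59.2% were higher, and 70.5% were higher with each library scaled to a common sum.

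Within the spleen, the contrast that the choice of genes did not use, Krt8 and Krt18 overlapped between the CD45+ and CD45- gates. Krt7, Epcam, Cdh1, Cldn4 and Sfn, 5 of the 10 genes, were higher in each splenic CD45+ than in each splenic CD45- library, and none was lower in each. Over all 17603 genes with a value, 47.1% were higher and 4.37% lower without overlap, so a count of 5 of 10 was near the background. None of the 10 genes passed the filter in this contrast, and they are therefore given as values only. On the log2(FPKM + 1) scale, splenic CD45+ minus splenic CD45- was 1.37 ± 0.36 (SE, n = 3 each) for Sfn, 0.97 ± 0.42 for Epcam, 0.46 ± 0.10 for Cdh1 and 0.31 ± 0.15 for Krt7. It was -0.11 ± 0.13 for Krt8 and -0.02 ± 0.18 for Krt18, within the spread of the libraries. Epcam, Sfn, Cdh1 and Krt7 were lowest in replicate 2 of the splenic CD45+ libraries, where the B cell, T and NK cell and macrophage lists described below also had their lowest sums of that group, 130.6, 36.38 and 1384 FPKM. The part of these cells in those values was not tested.

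The low Krt8 and Krt18 values of the spleen differed between libraries. Splenic CD45+ replicate 3 had 0.00913% of the tumor mean of Krt8 and 0.232% of that of Krt18, and splenic CD45- replicate 1 had 0.151% and 0.352%. Other tumor genes also had low values in the spleen, as seen in a set of 52 that includes Krt8 and Krt18. Among 52 genes at 50 FPKM or more in each tumor library and at least 100 times as high on average as in splenic CD45+ libraries, the median was 0.157%, 0.0314% and 0.157% of the tumor mean in splenic CD45+ replicates 1 to 3, a group that was used to choose the 52. In splenic CD45- replicates 1 to 3 it was 0.159%, 0.000875% and 0.0182%. There, replicate 1 was above both others for 49 of the 52. How these traces came about was not tested.

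Tumor replicate 1 stood apart from tumor replicates 2 to 4 in Krt18 more than in Krt8, and other tumor-high genes did not all differ in the same direction there. Its value divided by the mean of replicates 2 to 4 was 1.13 for Krt8, 1.63 for Krt18 and 1.54 for Cdh1. Over all genes at 1 FPKM or more in each tumor library the median of this ratio was 0.91, with 16.7% of genes above the ratio of Krt8 and 1.5% above that of Krt18. Several genes of mesenchymal and squamous identity were below 1, among them Hmga2 at 0.654, Twist1 at 0.689, Prrx1 at 0.671, Tfap2a at 0.654 and Sox2 at 0.752. The hemidesmosome gene Itgb4 was at 0.682, in a list of 5 that ranged from 0.532 to 1.06. The 9 genes of tight and adherens junctions ranged from 0.667 to 2.5. Of all genes, all but the lowest and highest 5% lay between 0.605 and 1.35, which takes in each gene just named as below 1. The fibrillar collagen Col3a1 was at 0.649, while the matrix proteoglycan Dcn was at 2.44 and the fibronectin gene Fn1 at 1.42. The 10 macrophage genes had a median of 1.1 and a range of 0.766 to 2.1. Larger ratios were found among neutrophil and erythroid genes, with medians of 23.5 and 5.98 over 4 genes each. Their ranges were 0.949 to 49.6 and 0.641 to 7.53, with the neutrophil gene Csf3r and the erythroid gene Tfrc below 1. Gzma, a T and NK cell gene, was at 0.106. The neutrophil gene S100a8 had 1060 FPKM in replicate 1, against 17.62 to 23.9 FPKM in replicates 2 to 4. The part of these cells in the keratin values of replicate 1 was not tested. The ratios of Krt8 and Krt18 were above 1 and those of most mesenchymal genes listed below 1, as the plot of replicate 1 against the others shows.

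**Figure D2:**
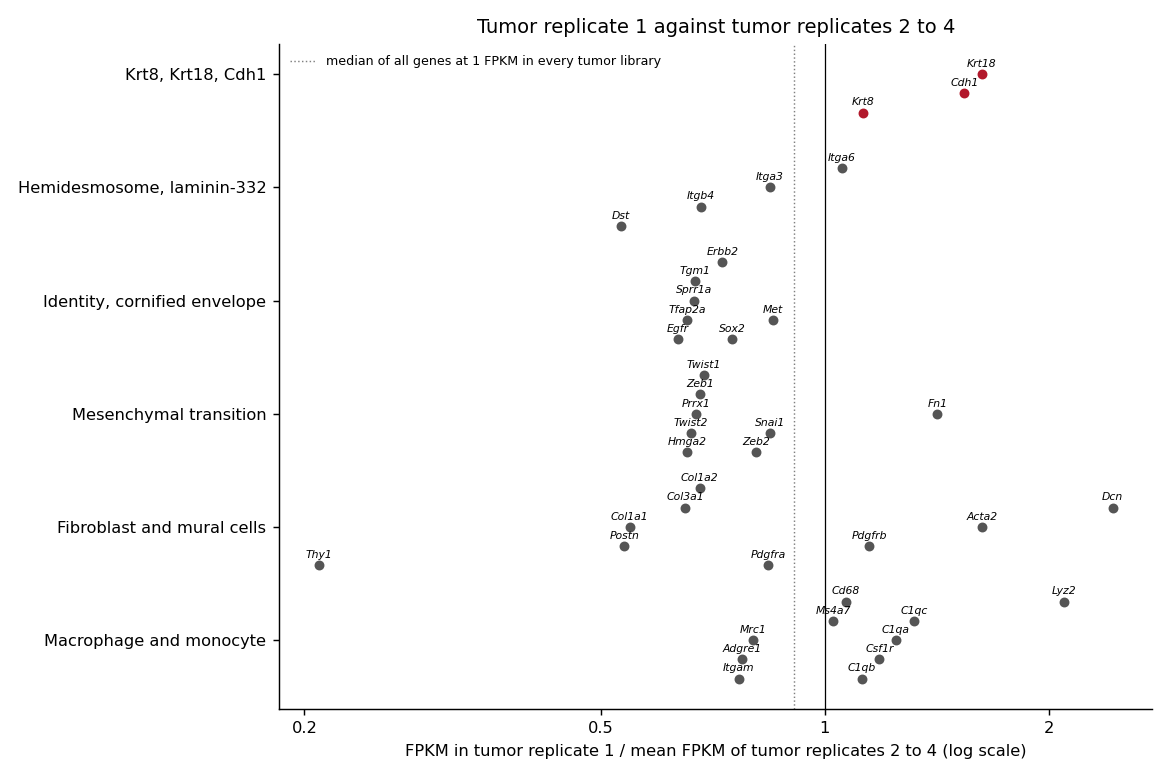
FPKM in tumor CD45+ replicate 1 divided by the mean FPKM of tumor CD45+ replicates 2 to 4, on a log axis, for listed genes at 1 FPKM or more in each tumor library; each point is 1 gene and the dotted line is the median of all such genes, 0.91. Krt18 at 1.63 and Cdh1 at 1.54 lie right of 1, and Hmga2 at 0.654, Itgb4 at 0.682 and Col3a1 at 0.649 lie left of it.

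Other keratins were scarcely detected in tumor libraries. Of 49 further keratins listed, 23 had a value, and 22 of these were below 0.7 FPKM in each tumor library. Krt80, a type II keratin of differentiating epithelia, was the exception, with 9.79, 6.2, 5.6 and 5.13 FPKM in tumor CD45+ libraries, against 17.5, 0.71 and 2.9 FPKM in splenic CD45+ libraries and 0.04, 0.04 and 0.03 FPKM in splenic CD45- libraries. Tumor and splenic CD45+ libraries overlapped for Krt80, and it was not called (log2 difference 0.59 ± 0.71 SE, limma adjusted p = 0.491). Without splenic CD45+ replicate 1 the difference was 1.54 with a limma adjusted p of 0.00947, and without replicate 2 it was -0.18 with a limma adjusted p of 0.783. Krt16, a type I keratin of activated squamous epithelium, had 0.03, 0.45, 0.55 and 0.61 FPKM in tumor CD45+ libraries and 0 in each splenic library, so it was lowest in the tumor library where Krt18 was highest. Krt222 reached 1 FPKM in splenic CD45+ libraries only, with 1.19, 0.17 and 1.79 FPKM, against at most 0.01 FPKM in tumor CD45+ libraries.

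Krt8 and Krt18 stood at one edge of the type II keratin cluster, and Krt80 at the other. Between them, from Krt7 to Krt78, the 14 keratins of the cluster with a value reached at most 0.16 FPKM in a tumor library, and Krt78 directly borders Krt8. Krt18, the type I keratin that sits at the end of this type II cluster, is followed at 41746 bases by Eif4b, a translation initiation factor. Further along, Igfbp6, a secreted binding protein of insulin-like growth factors, was also high in tumor CD45+ libraries with 67.8, 51.68, 49.21 and 48.05 FPKM. Its splenic CD45+ libraries had 1.66, 0.18 and 0.74 FPKM and its splenic CD45- libraries 0.23, 0.04 and 0 FPKM, without overlap with the tumor.

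**Figure D3:**
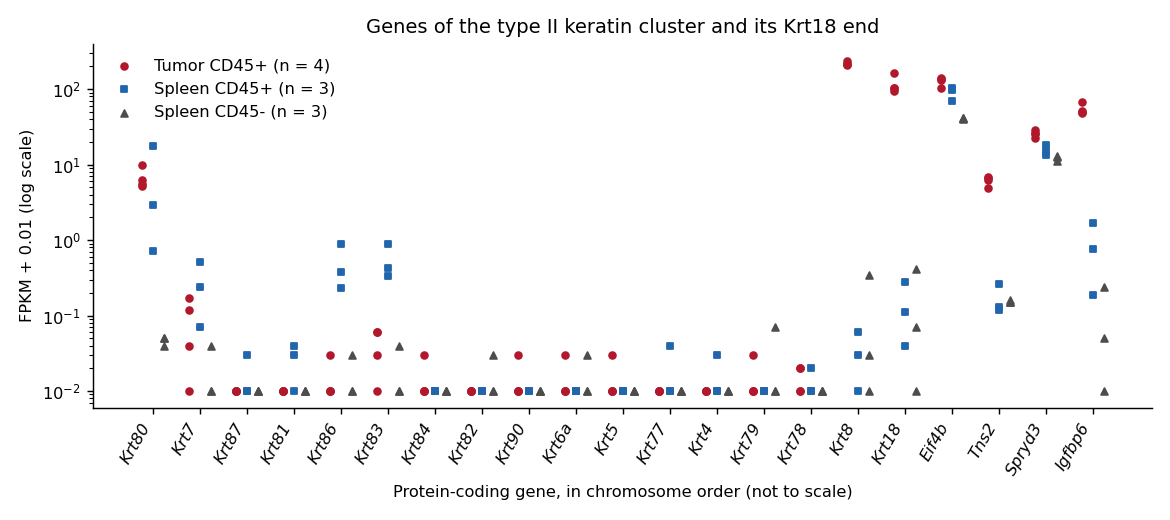
FPKM plus 0.01 on a log axis for the protein-coding genes with a value from Krt80 to Igfbp6 on chromosome 15, in chromosome order and not to scale, with 1 point per library. The keratins from Krt7 to Krt78 stay at or below 0.16 FPKM in tumor CD45+ libraries, while Krt8 and Krt18 beside them lie between 95.43 and 239.2 FPKM.

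Further epithelial genes were higher in tumor libraries in part, and many were near 0 there. In 6 further epithelial lists together, 1 of them the list of other keratins, 105 of 137 listed genes had a value, and 51 of these were below 0.1 FPKM in each tumor library. In the limma fit, 34 were tested, of which 19 were higher and 6 lower in tumor CD45+ libraries, against 37.7% and 26% of all genes tested. Their median log2 difference was 1.02, and that of all genes tested 0.203. Of the 34, 10 were below 1 FPKM in each splenic CD45+ library and could be called higher only, and 4 were below 1 FPKM in each tumor library and could be called lower only. With no filter, 26 of the 105 were higher and 17 lower, against 5024 and 3644 of all 17603 genes, so both shares were then below those of all genes. The summed FPKM of the 6 lists was 355.3 to 381.5 in tumor CD45+ libraries, 169 to 302.5 in splenic CD45+ libraries and 70.66 to 87.8 in splenic CD45- libraries. A few genes made up much of these sums. The catenin genes Ctnna1 and Ctnnb1 had 69.47 to 71.99 and 129.8 to 148.5 FPKM in tumor CD45+ libraries, and 26.49 to 44.51 and 56.87 to 83.98 FPKM in splenic CD45+ libraries. Ly6d had 88.28, 5.33 and 90.82 FPKM in splenic CD45+ libraries.

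Of 8 genes of hemidesmosomes and laminin-332, the complexes that tie basal keratins to the matrix, 5 were tested and all 5 were higher in tumor CD45+ libraries; 3 of the 5 were below 1 FPKM in each splenic CD45+ library and could be called higher only. Integrin β4 (Itgb4) had 7.6, 10.87, 11.51 and 11.03 FPKM in tumor CD45+ libraries, against 0.01, 0.01 and 0 FPKM in splenic CD45+ libraries (log2 difference 3.47 ± 0.16 SE, limma adjusted p = 1.78e-06). Its partner Itga6 was higher by 2.60, Itga3 by 2.27 and the linker Dst by 1.56. Dst was not called with tumor replicates 2 to 4 averaged (limma adjusted p = 0.0642). Of 15 genes of desmosomes and keratin linkers, 5 were tested, 1 of which (Pkp2) could be called higher only, and 3 were higher. These were the linker Plec by 2.17 and the plakophilins Pkp2 by 1.76 and Pkp4 by 1.66, while Jup (0.07, adjusted p = 0.921) and Pkp3 (0.47, adjusted p = 0.294) were not called by limma. Without splenic CD45+ replicate 2, Jup was lower by 0.65 on the log2 scale with a limma adjusted p of 0.0442, and Pkp3 had a difference of -0.04 with a limma adjusted p of 0.768. Desmoplakin (Dsp), Perp, Evpl and Eppk1, further parts or linkers of desmosomes, were at 0.04 FPKM or less in each tumor library.

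Junction genes that were higher in tumor CD45+ libraries included 3 catenins, which many cell types express. Of 18 genes of tight and adherens junctions, 10 were tested, 6 were higher and 1 was lower. Cldn12 was below 1 FPKM in each splenic CD45+ library and could be called higher only. Cldn1 was below 1 FPKM in each tumor library and could be called lower only. The catenins that bind E-cadherin were higher by 1.99 (Ctnnd1), 1.05 (Ctnnb1) and 0.99 (Ctnna1), Cldn12 by 2.12, Nectin4 by 1.45 and Nectin1 by 0.79. The call of Nectin1 (limma adjusted p = 0.031) was lost without splenic CD45+ replicate 2 or 3, without tumor replicate 1, 2 or 3, with tumor replicates 2 to 4 averaged, and without the filter. Cldn1 was lower by 1.49 on the log2 scale, with 0.07, 0.12, 0.06 and 0.08 FPKM in tumor CD45+ libraries and 1.52, 1.79 and 3.02 FPKM in splenic CD45+ libraries. The epithelial claudins Cldn3 and Cldn7 were at 0.2 FPKM or less in each tumor library.

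Among 32 genes of epithelial and squamous identity, 10 were tested, with 4 higher and 4 lower. Of the 10, 4 were below 1 FPKM in each splenic CD45+ library and could be called higher only. Another 3 were below 1 FPKM in each tumor library and could be called lower only. Sox2, a transcription factor of squamous progenitors, had 2.19, 3.04, 3.02 and 2.68 FPKM in tumor CD45+ libraries and was listed at 0 in each splenic library, and Tfap2a, a factor of surface ectoderm, was higher by 1.83. The receptor kinases Met and Egfr were higher by 1.81 and 1.30. Those lower in tumor CD45+ libraries included Ly6d (-4.99), Spint2 (-2.43) and Klf5 (-0.91). Ly6d, which B cells also express, had 0.5, 0, 0.17 and 0.09 FPKM in tumor CD45+ libraries and 88.28, 5.33 and 90.82 FPKM in splenic CD45+ libraries. Klf5 was not called without splenic CD45+ replicate 3 (limma adjusted p = 0.0619) or with each library scaled to a common sum (limma adjusted p = 0.0672). The squamous master factor Trp63, the epithelial factor Grhl2 and the splicing factor Esrp1 were at 0.08 FPKM or less in each tumor library. Of 15 cornified envelope genes, 3 were tested, 1 of which (Sprr1a) could be called higher only. Sprr1a was higher by 2.34, Dmkn was lower by 1.08 on the log2 scale, and Tgm1 was not called (0.41, limma adjusted p = 0.531). Without splenic CD45+ replicate 1 the difference of Tgm1 was 1.08 with a limma adjusted p of 0.0281, and without replicate 2 it was -0.24 with a limma adjusted p of 0.566. Dmkn was not called with tumor replicates 2 to 4 averaged (limma adjusted p = 0.0704).

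**Figure D4:**
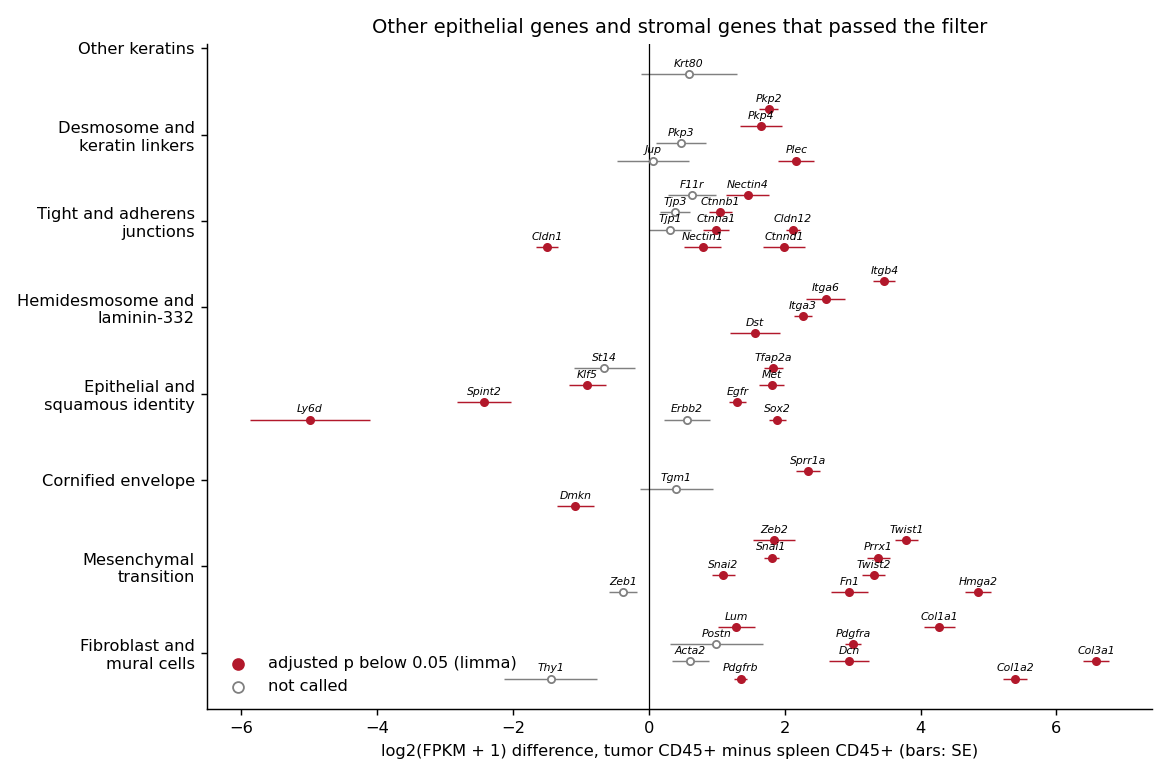
Difference of mean log2(FPKM + 1), tumor CD45+ minus splenic CD45+, with its limma SE, for the tested genes reported of the 6 further epithelial lists and of the mesenchymal and fibroblast lists; filled points have a limma adjusted p below 0.05. The hemidesmosome genes shown lie between 1.56 and 3.47, and identity genes lie on both sides of 0, from -4.99 for Ly6d to 1.89 for Sox2.

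Mesenchymal and stromal genes were higher in the same tumor libraries, and their part in the keratin values was not tested. Of 10 genes of mesenchymal transition, 9 were tested, 8 were higher and none was lower, against 37.7% and 26% of all genes tested. Of the 9, 6 were below 1 FPKM in each splenic CD45+ library and could be called higher only. Hmga2 was higher by 4.84, Twist1 by 3.79, Prrx1 by 3.38, Twist2 by 3.31 and Fn1 by 2.95, and Zeb1 was not called (-0.38, limma adjusted p = 0.138), though it was with trimmed-mean scaling (-0.48, limma adjusted p = 0.0365). The list summed to 278.8 to 317.8 FPKM in tumor CD45+ libraries, 30.65 to 54.76 FPKM in splenic CD45+ libraries and 5.68 to 8.53 FPKM in splenic CD45- libraries. Fn1 alone had 169.2 to 241 FPKM of the tumor sums and 16.6 to 35.38 FPKM of the splenic CD45+ sums. The 10 fibroblast and mural genes were all tested and 7 were higher. Of the 10, 7 were below 1 FPKM in each splenic CD45+ library and could be called higher only. Acta2 (0.61, limma adjusted p = 0.0822), Thy1 (-1.44, limma adjusted p = 0.0984) and Postn (0.99, limma adjusted p = 0.238) were not called, but each was without 1 splenic CD45+ library, Acta2 without replicate 3 (0.95, limma adjusted p = 0.00542), Thy1 without replicate 2 (-2.23, limma adjusted p = 0.00439) and Postn without replicate 1 (1.88, limma adjusted p = 0.00603). The collagen genes Col3a1, Col1a2 and Col1a1 were higher by 6.59, 5.39 and 4.28. That list summed to 150.6 to 215.9 FPKM in tumor CD45+ libraries, 5.15 to 44.93 FPKM in splenic CD45+ libraries and 0.8 to 2.5 FPKM in splenic CD45- libraries. Of 4 mesothelium genes, which mark another keratin-bearing lining, Msln had 4.89, 4.13, 4.93 and 3.85 FPKM in tumor CD45+ libraries and was listed at 0 in each splenic CD45+ library, and Wt1 and Upk3b were at 0.02 FPKM or less in each tumor library. Of 7 endothelial genes, 4 were tested, with Kdr higher by 1.90, Cdh5 higher by 1.51 and Pecam1 lower by 2.30 on the log2 scale. Kdr and Cdh5 were below 1 FPKM in each splenic CD45+ library and could be called higher only. Pecam1 was not called without splenic CD45+ replicate 3 (limma adjusted p = 0.06) or with tumor replicates 2 to 4 averaged (limma adjusted p = 0.0719).

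White blood cell and erythroid genes gave the context of the gate. All 10 macrophage genes were higher in tumor CD45+ libraries, Ms4a7 by 7.39, and their sum was 24480 to 45940 FPKM there, against 1384 to 4274 FPKM in splenic CD45+ libraries. All 8 neutrophil, all 5 B cell and all 8 erythroid genes were lower in tumor CD45+ libraries, as were 6 of 7 T and NK cell genes; 3 of the B cell, 3 of the T and NK cell and 2 of the erythroid genes were below 1 FPKM in each tumor library and could be called lower only. B cell genes summed to 1.48 to 3.63 FPKM in tumor CD45+ libraries and 130.6 to 1172 FPKM in splenic CD45+ libraries. Of 16 other intermediate filament genes, 7 were tested, with 4 higher and 3 lower. Of the 7, 1 was below 1 FPKM in each splenic CD45+ library and could be called higher only. Another 2 were below 1 FPKM in each tumor library and could be called lower only. Vim, the vimentin of mesenchymal and white blood cells, had 2810, 2438, 2534 and 2370 FPKM in tumor CD45+ libraries and 153.8, 72.64 and 153.9 FPKM in splenic CD45+ libraries. In splenic CD45- libraries it had 5.48, 1.79 and 2.18 FPKM. The tumor libraries thus held both filament types, with more vimentin RNA per transcript length than Krt8 and Krt18 RNA combined. Nes was higher by 3.42 and Lmna by 1.83, and Gfap was lower by 3.88 on the log2 scale.

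In the spleen, 11 genes of the 6 further epithelial lists were tested between the CD45 gates, and 7 were higher and none lower in splenic CD45+ libraries by limma. Among all 9728 genes tested, 55.5% were called, 50.5% higher and 5.02% lower, and the median log2 difference was 0.673. Of all calls 91% were higher, against 75.4% with trimmed-mean scaling and 72.5% without splenic CD45+ replicate 2. Of the 11, 4 were below 1 FPKM in each splenic CD45- library and could be called higher only. The 7 higher genes included Ly6d by 3.10, Spint2 by 2.13, Plec by 2.05, Cldn1 by 1.59, Dmkn by 1.59 and Ctnnb1 by 0.87. The calls of Ly6d and Ctnnb1 were lost with trimmed-mean scaling (limma adjusted p = 0.0587 and 0.0936). Of these, Ly6d, Spint2, Cldn1 and Dmkn were lower in tumor CD45+ than in splenic CD45+ libraries, a comparison that shares the splenic CD45+ libraries with this one.

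The genes whose profile was most like that of the pair were a mixture. Likeness was the root mean square distance between log2(FPKM + 1) profiles over the 10 libraries, each gene centred on its own mean, among 11541 genes. The nearest to Krt8 were Fcrls at a distance of 0.056, Crabp1 at 0.108, Pmp22 at 0.197, Pdpn at 0.242 and Dab2 at 0.274, followed by Ch25h, C3ar1, Folr2, Gm52796 and Htra1. The nearest to Krt18 were Tm4sf1 at 0.240, Htra1 at 0.250, Stab1 at 0.302, Akr1b8 at 0.342 and Serpinf1 at 0.350, followed by Col3a1, Mmp14, Raet1d, Serpinh1 and Sparc. Fcrls, C3ar1, Folr2 and Stab1 are known from macrophages, and Col3a1, Serpinh1, Sparc and Mmp14 from cells that make or remodel matrix. Krt18 was the 15th nearest to Krt8 and Krt8 the 29th nearest to Krt18, and 1 gene, Htra1, was in both sets of 10. All of these genes share the step between tumor and spleen, and the 10 libraries are 3 groups, so the order is a description.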

How the data were processed

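Messenger RNA was sequenced in 10 libraries of sorted mouse cells. A company extracted the RNA with TRIZOL and built the libraries, per the labels' protocols. Per the submitters' processing notes, GRCm38.p6 was the build. Aligner, quantifier and strand were not given in the sources used here. For every library the authors deposited 1 value per RefSeq model; neither labels nor headers name the unit, and the deposited values were read as FPKM because, once multiplied by transcript length in kilobases, they sum to 971633 to 1174331 per library, near what FPKM requires. Models were summed per symbol (60167 of 61685 models, 17603 genes); the 1518 models without a symbol held 0.423% to 1.06% of summed FPKM and entered no test.

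The genes described, and all lists, were chosen with earlier results of these data known. The log2(FPKM + 1) values of each comparison were fitted in limma 3.58.1 (R 4.3.3) with a variance trend and without covariates. A gene entered if at least 3 of the libraries compared had 1 FPKM or more, and was called where its Benjamini-Hochberg adjusted p was below 0.05. Every adjusted p is from limma. The pseudocount of 1 understates changes of low genes. A gene below 1 FPKM throughout 1 group could be called in 1 direction only. No label ties a replicate to its own mouse, and the p-values cover only the spread of these libraries, which can be technical. The named genes were all 10 genes of the set, up to 5 called genes per list with the largest difference, list genes near 0 in tumor, and the 10 nearest profiles; other list genes named, those not called among them, and those of the chromosome 15 region were added after their values were seen. Of the list genes counted, 2 are not reported here by name. Promoters came from RefSeq for GRCm38.p6. Each fit was tested on simulated data. Alternatives changed the pseudocount, filter, scaling, gene model, replicates, block and libraries fitted. Figures used matplotlib 3.10.9.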

Additional observations from a re-analysis of the deposited data

Results flagged for a closer look

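The 4 tumor CD45+ libraries were searched for a single library far from the other 3, by a ratio of gap to range above Dixon's critical value for 4 values, in the 10 genes of the set and 29 genes of the epithelial, mesenchymal, fibroblast and mesothelium lists. Of these 39 genes, 12 had such a library, and in 10 of the 12 it was tumor replicate 1. The other genes of those lists were not searched, so these counts describe a chosen set of genes. Chance alone marks about 0.05 of such groups, and the 12 are not independent, since they share the library.

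In tumor replicate 1, Krt18 stood above the others with 163.9 FPKM, against 95.43 to 104.8 FPKM in replicates 2 to 4, as did Dcn with 13.51 FPKM (5.11 to 5.86 FPKM) and Fn1 with 241 FPKM (169.2 to 171.7 FPKM). Below the others were Col3a1 with 70.44 FPKM (107.8 to 109.8 FPKM), Col1a2 with 34.05 FPKM (48.86 to 50.81 FPKM), Col1a1 with 12.99 FPKM (23.62 to 23.85 FPKM), Hmga2 with 23.41 FPKM (35.42 to 36.05 FPKM), Itgb4 with 7.6 FPKM (10.87 to 11.51 FPKM) and Tfap2a with 1.88 FPKM (2.8 to 2.92 FPKM). Krt19, Krt5 and Epcam lay near 0 and rest on few fragments. Krt19 had 0.1 FPKM in tumor replicate 1 and 0 in the others, Krt5 had 0.02 FPKM in tumor replicate 4 and 0 in the others, and Epcam had 0.04 FPKM in tumor replicate 4 and 0.02 FPKM in the others.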

How the results depend on the processing

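The tumor CD45+ minus splenic CD45+ difference of Krt8 and Krt18 kept its sign in all 15 alternatives run. It was 10.81 and 9.07 on the log2 scale with a pseudocount of 0.1, in place of 7.75 and 6.67, and for Krt8 7.54 with trimmed-mean scaling and 8.05 with a common sum. Leaving out 1 library gave 7.70 to 7.77 for Krt8 and 6.49 to 6.75 for Krt18. Signs of Krt19 and Krt5 in that contrast, and of Krt8, Krt18 and Krt14 between the splenic gates, were not stable, as their differences were near 0. With no filter, 3 genes of the set passed the limma threshold between splenic CD45+ and CD45- libraries, Sfn (adjusted p = 0.0336), Cdh1 (0.0213) and Cldn4 (0.0132), while Epcam (0.111), Krt7 (0.137) and Krt8 (0.511) did not. Of all 17603 genes in that fit, 5588 passed, 5195 of them higher in splenic CD45+ libraries, so 3 of 10 was near the background. The Cldn4 result rested on about 1 fragment or less in each splenic CD45+ library, against 0 FPKM in each splenic CD45- library.

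Between tumor and splenic CD45+ libraries, 6327 to 7949 genes were called by limma with 1 library left out, and 4769 with tumor replicates 2 to 4 averaged, in place of 7313. Calls split into 4327 higher and 2986 lower as deposited, and 4764 and 1995 with a common sum, where the median of all genes was 0.446 in place of 0.203 and 0.0928 with trimmed-mean scaling. In the 6 further epithelial lists 19 to 25 genes were called with 1 library left out, and 43 with no filter (26 higher and 17 lower), in place of 25. More genes are then tested, 105 in place of 34. Of all 17603 genes in the fit with no filter, 8668 were called, 5024 higher and 3644 lower. The shares of the lists called higher and lower were then below those of all genes. Cldn1, Spint2 and Ly6d were not tested when a splenic CD45+ library was left out, since 3 libraries then no longer reached the filter. Between splenic CD45+ and CD45- libraries 3023 to 5152 genes were called with 1 library left out, the lowest without splenic CD45+ replicate 1, in place of 5400, and with fewer genes tested (8102 in place of 9728). The split there was 4912 higher and 488 lower as deposited, 3553 and 1161 with trimmed-mean scaling, 5643 and 121 with a common sum, and 3733 and 1419 without splenic CD45+ replicate 2. Of the 7 calls in the epithelial lists there, Ly6d was lost by trimmed-mean scaling (adjusted p = 0.0587), with no filter (0.102) and without any 1 of 5 libraries, and Ctnnb1 by trimmed-mean scaling (0.0936) and without splenic CD45- replicate 1 (0.0586). Plec, Cldn1 and Dmkn were among the calls there that were not tested when a splenic CD45+ library was left out. Plec was also not tested with the highest model of each gene.

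Replicate numbers shared by the groups did not pair the libraries, as the deviations of same-numbered libraries from their group means correlated between -0.175 and 0.118. A limma fit that takes this number as a block, over the numbers both groups have, called 5573 genes between tumor and splenic CD45+ libraries, 26 of the epithelial lists among them, and 4851 between the splenic gates. The difference of Krt8 was then 7.76 and that of Krt18 6.75. Low values limit these results: at this depth 1 fragment was worth 0.0116 to 0.0359 FPKM for the 10 genes.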
